A study of Homo sapiens with 10 samples.

Results

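Small Cajal body RNAs (scaRNAs) were examined in clones of PC-3, an established human prostate cancer cell line. Members were the genes whose platform-table symbol starts with SNORA, SNORD or SCARNA, each represented by its row of highest mean over 10 clones. The rule found 23 of 14884 named genes, and all 23 were SCARNA genes. It matched 0 SNORA and 0 SNORD symbols in the table used here, so small nucleolar RNAs were not analysed and the RNAs described are Cajal body RNAs. PC-3 cells had received a lentiviral vector, either empty (control clones 1 to 5) or carrying CENPU (CENPU clones 1, 4, 5, 7 and 13), followed by blasticidin selection and growth as clonal isolates. Both groups thus carry a vector and its selection marker, and each sample is 1 clone on 1 Affymetrix array. All values are log2 expression, and a difference is the CENPU mean minus the control mean, tested with limma and Benjamini-Hochberg adjustment over 16098 named rows, with 0.05 as the threshold on the adjusted p.

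Guide RNAs of this kind direct chemical modification of other RNAs by base pairing. Those with box C/D motifs carry the methyltransferase fibrillarin, and those with box H/ACA motifs carry the pseudouridine synthase dyskerin. Small nucleolar RNAs act on ribosomal RNA in the nucleolus, whereas scaRNAs are held in Cajal bodies, nuclear domains built on coilin, and act on the spliceosomal RNAs. Most are cut out of introns of host genes after splicing. By architecture, 13 members are box H/ACA RNAs, 4 are box C/D RNAs, 4 carry both kinds of domain, and SCARNA9L and SCARNA27 were left unclassed.

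CENPU itself checked the labels: its mean was 9.34 ± 0.43 over the CENPU clones, against 6.26 ± 0.29 over the controls (SD, n = 5 each), and the groups did not overlap. Among marker genes of the line, the epithelial keratin gene KRT18 lay between 10.27 and 11.14 and KRT19 between 10.20 and 11.24, KRT8 between 6.36 and 7.07, and EPCAM between 5.75 and 7.62. The prostate antigen gene KLK3, chosen as a gene low or lost in this line, lay between 5.36 and 5.72, and KLK2, chosen likewise, between 5.33 and 5.78. Of genes of other cells, PECAM1 lay between 4.88 and 6.21 and ALB between 4.06 and 4.66. VIM, the gene of the filament protein vimentin, lay between 7.58 and 8.75 and was higher in CENPU clones by 0.74 (limma adjusted p = 0.00446), with no overlap. CDH1 and CAV1 had no named row. Levels of different probe sets are not on 1 scale, so no gene is ranked against another here. The labels name a silica column kit for RNA, a kind that retains short RNAs poorly, and recovery of short RNA was not measured.

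Upstream sequences are shown for 3 genes whose spans hold members on which the results turn: EEF1E1, around the member that passed, ATG16L1, around 2 members that moved alike, and CHD3, the host with the largest difference. Each is the 250 bases before the annotated start, from RefSeq (GRCh38.p14), 5′ to 3′ on the gene's strand. Capitals mark matches on either strand to the letters of 3 promoter boxes. The first is TATAAA, read as a TATA box. Another is CCAAT, bound by NF-Y, and the last is GGGCGG, a GC box bound by factors such as SP1.
EEF1E1 (chr6:8102549-8102798, minus strand): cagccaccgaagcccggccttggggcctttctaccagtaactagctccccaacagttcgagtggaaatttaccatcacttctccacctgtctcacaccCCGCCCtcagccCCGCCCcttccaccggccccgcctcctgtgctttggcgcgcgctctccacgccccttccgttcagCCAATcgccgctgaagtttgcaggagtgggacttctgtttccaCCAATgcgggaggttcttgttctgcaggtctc
ATG16L1 (chr2:233251423-233251672, plus strand): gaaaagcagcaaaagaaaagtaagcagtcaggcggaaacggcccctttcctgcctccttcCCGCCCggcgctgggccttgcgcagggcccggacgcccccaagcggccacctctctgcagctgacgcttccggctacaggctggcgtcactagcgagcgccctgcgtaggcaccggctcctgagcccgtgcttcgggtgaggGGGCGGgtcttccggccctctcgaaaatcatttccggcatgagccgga
CHD3 (chr17:7888539-7888788, plus strand): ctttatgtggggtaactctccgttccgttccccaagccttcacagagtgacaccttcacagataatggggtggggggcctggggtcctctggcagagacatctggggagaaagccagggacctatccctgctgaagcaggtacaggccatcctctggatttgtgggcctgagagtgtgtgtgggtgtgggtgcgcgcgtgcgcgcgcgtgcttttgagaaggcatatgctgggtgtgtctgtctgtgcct

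The EEF1E1 window held 2 CCAAT and 2 GGGCGG matches, the ATG16L1 window 2 GGGCGG matches, and the CHD3 window none of these letters. Of 24 genes with a sequence in the table whose span holds a member, 20 had GGGCGG, 11 had CCAAT and 1 had TATAAA. Among all 27305 upstream windows of this length the shares were 42.3%, 33% and 11.1%. The 24 windows also held more CG pairs, with a median of 21 against 11 over all windows. The part of that in the GGGCGG count was not tested. These are counts of letters, and no binding was measured.

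One Cajal body RNA rose and none of the others passed. SCARNA27 was higher in the CENPU clones, and 22 members did not pass, so 4.35% of members passed against 10.1% of all named genes (5.31% higher and 4.79% lower). Before adjustment, 6 members had a p under 0.05, which is 26.1% against 27.9% of all genes. The groups did not overlap for 2 members, SCARNA27 and SCARNA17, where 9.73% of all genes had groups that did not overlap. Of the 23 differences, 10 were above 0 and 13 below, with a median of -0.06 against -0.02 over all genes. The 95% interval of a member's difference reached a median of 0.51 to either side, compared with 0.28 over all genes. That interval is not adjusted for the number of rows, so a change of that size would usually not pass. Larger differences also did not pass: SCARNA1 at -0.58, SCARNA17 at -0.62, SCARNA14 at -0.65, SCARNA2 at -0.74 and SCARNA3 at 1.33.

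**Figure D1:**
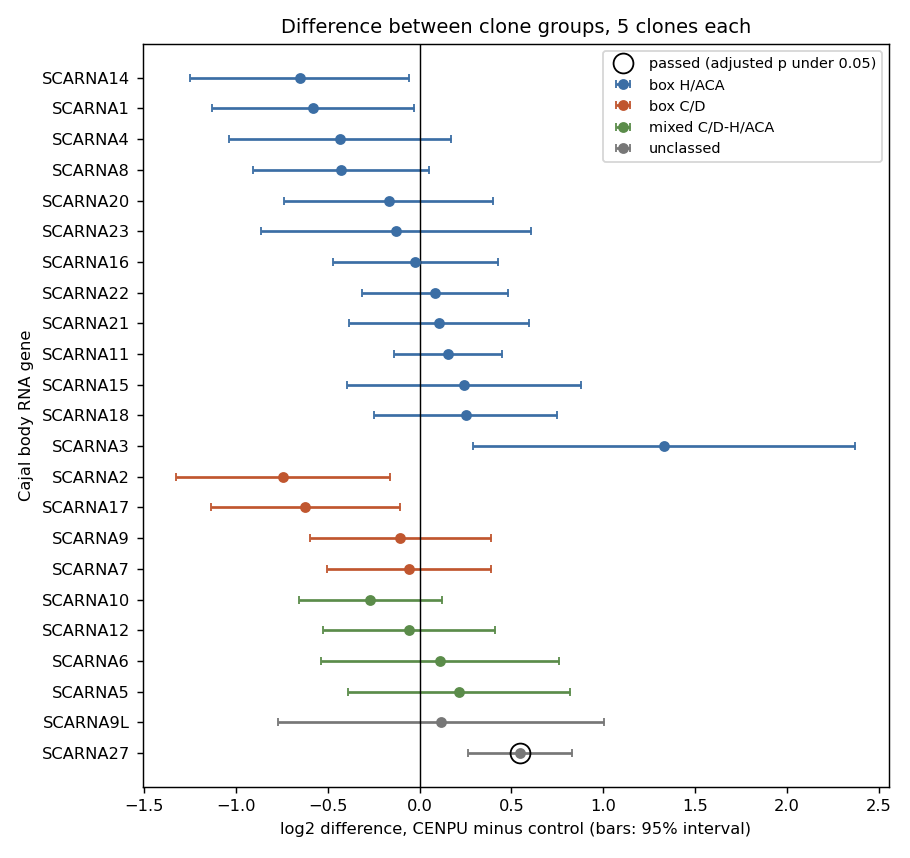
Log2 difference between CENPU and control clones (x axis, log2 units) for each of 23 Cajal body RNA genes (y axis), coloured by architecture, with the 95% interval from limma as bars. SCARNA27, at 0.55, is the circled gene that passed, and SCARNA3, at 1.33, has the widest interval.

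SCARNA27 lies within the span of EEF1E1, which encodes a component of the multi-tRNA synthetase complex and had no named row here. SCARNA27 measured 6.98, 7.34, 7.16, 7.02 and 6.90 in CENPU clones 1, 4, 5, 7 and 13. In control clones 1 to 5 it measured 6.17, 6.71, 6.44, 6.77 and 6.58. Every CENPU clone was above every control clone. The difference was 0.55, or 1.46-fold (SE 0.13, limma adjusted p = 0.0243). It stayed above 0 in all 20 alternative fits, from 0.46 to 0.67. The call was lost without CENPU 5 (limma adjusted p = 0.0571), CENPU 7 (0.0523), control 3 (0.0574) or control 5 (0.0502), after quantile normalization (0.0612), and with clone number as a replicate block (0.0884), although the numbers do not pair the clones.

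SCARNA3, a box H/ACA RNA also known as HBI-100, had the largest difference of any member and did not pass. It measured 5.69, 8.33, 6.15, 6.83 and 6.01 in CENPU clones 1, 4, 5, 7 and 13, and 4.19, 6.19, 5.39, 5.30 and 5.27 in control clones 1 to 5. CENPU 4 was the highest and control 1 the lowest, and control 2 lay above CENPU 1, 5 and 13. The difference was 1.33 (SE 0.48, limma adjusted p = 0.0971). Without CENPU 1 it was 1.56 and passed (limma adjusted p = 0.0495), and without control 2 and CENPU 4 together it was 1.13 and did not pass.

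All 4 box C/D members had differences below 0, with a median of -0.36 and a range from -0.74 to -0.06, and 0 of them passed. Among them, 2 had an unadjusted limma p under 0.05, where 27.9% of all named genes did. Over all named genes, 7900 of 14884 differences were below 0. SCARNA9L, named as a copy of the box C/D RNA SCARNA9 but left unclassed, differed by 0.12, so the shared sign holds only for the class as drawn. The box C/D median was -0.21 without CENPU 7, -0.52 without CENPU 5 and between these without any other single clone, and -0.09 without control 2, CENPU 7 and CENPU 13 together. SCARNA2 guides methylation of U2 RNA and has a transcription unit of its own, with no gene of the RefSeq table around it. It measured 7.87, 7.93, 7.44, 7.28 and 7.39 in CENPU clones 1, 4, 5, 7 and 13, and 7.59, 9.11, 8.83, 8.03 and 8.06 in control clones 1 to 5. Controls 2 and 3 stood above all other clones, and control 1 fell within the CENPU range. The difference was -0.74 (SE 0.27, limma adjusted p = 0.099), and without control 1 it was -0.92 and passed (limma adjusted p = 0.0411). Without control 2 it was -0.54 and did not pass (limma adjusted p = 0.204).

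SCARNA17, which holds the RNA known as U91 and lies within the non-coding gene SNHG22, showed a low value in 1 clone. It measured 10.08, 9.97, 10.07, 8.77 and 9.66 in CENPU clones 1, 4, 5, 7 and 13, and 10.09, 10.28, 10.70, 10.43 and 10.15 in control clones 1 to 5. CENPU 7 was far below the rest, and the nearest CENPU and control clones were almost level, although the groups did not overlap. The difference was -0.62 (SE 0.23, limma adjusted p = 0.113), and -0.39 without CENPU 7 (limma adjusted p = 0.151). SCARNA7 (U90), which guides methylation of U1 RNA, differed by -0.06 with a 95% interval from -0.50 to 0.39, and its sign turned without CENPU 7 (0.03), CENPU 13 (0.03), control 2 (0.07) or control 3 (0.01).

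SCARNA9 guides methylation of U2 RNA, and SCARNA9L is named as a copy of it, so the probe sets may share signal and their levels cannot be assigned to 1 copy with certainty. SCARNA9 measured 9.19, 8.84, 10.19, 8.93 and 9.10 in CENPU clones 1, 4, 5, 7 and 13, and 9.25, 9.64, 9.39, 9.08 and 9.40 in control clones 1 to 5. SCARNA9L measured 5.85, 7.02, 8.24, 6.26 and 6.35 in the same CENPU clones, and 6.28, 7.18, 7.26, 6.19 and 6.22 in the controls. Both were highest in CENPU 5, above every other clone. In CENPU 4 they went opposite ways, with SCARNA9 0.46 below its own mean and SCARNA9L 0.33 above. The gap between the 2 RNAs ran from 1.82 to 3.34 over the 10 clones, with an SD of 0.52. SCARNA9 itself varied with an SD of 0.39 and SCARNA9L with 0.72. Their group differences, -0.10 and 0.12, did not pass (limma adjusted p = 0.803 and 0.884). CEP295, a centriole gene whose span holds SCARNA9, measured 5.45 in CENPU 5 and 5.91 in CENPU 13, so its highest clone was another one.

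**Figure D2:**
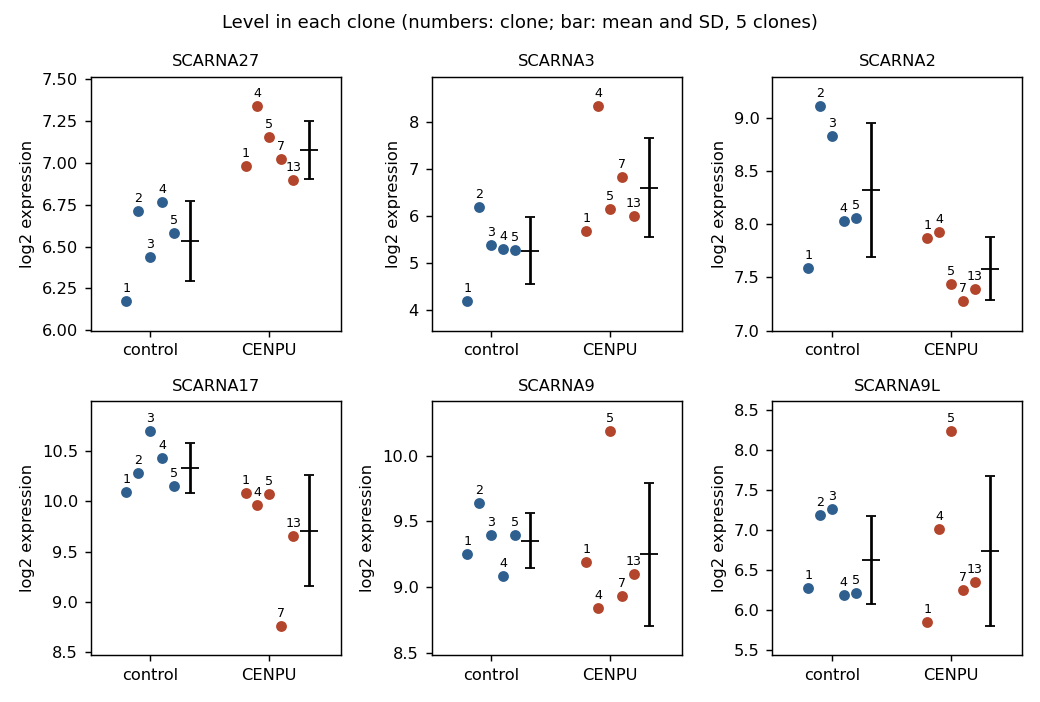
Log2 expression (y axis, a scale of its own in each panel) of 6 Cajal body RNA genes in control and CENPU clones (x axis), 1 point per clone with its number, and the mean and SD of 5 clones as a bar. The groups are apart for SCARNA27, CENPU 7 is low for SCARNA17, and CENPU 5 is the highest clone for both SCARNA9 and SCARNA9L.

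The 13 box H/ACA members went both ways, with 6 differences above 0 and 7 below, a median of -0.02 and 0 passing, where 10.1% of all named genes passed. Before adjustment, 3 had a limma p under 0.05, which is 23.1% against 27.9% of all named genes. SCARNA14 (U100), a guide for U2 RNA, measured 5.69, 6.71, 5.54, 5.84 and 5.85 in CENPU clones 1, 4, 5, 7 and 13, and 6.08, 7.43, 6.76, 6.51 and 6.12 in control clones 1 to 5. Apart from CENPU 4, every CENPU clone was below every control. The difference was -0.65 (SE 0.27, limma adjusted p = 0.148), and it was -0.85 and passed without CENPU 4 (limma adjusted p = 0.0445). SCARNA1 (ACA35), another guide for U2 RNA, differed by -0.58 (limma adjusted p = 0.162), with CENPU 4 at 8.24 inside the control range of 7.75 to 9.01. SCARNA1 and SCARNA14 both passed without control 2 and CENPU 4 together, at -0.53 and -0.64 (limma adjusted p = 0.0461 and 0.0468). Those clones were chosen after the values were seen and were the highest of their groups for both genes. Leaving them out lowers the spread within groups, so that fit adds no support. Without control 2 alone SCARNA1 and SCARNA14 were -0.36 and -0.44 and did not pass (limma adjusted p = 0.308 and 0.295).

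The U2 guides SCARNA4 (ACA26) and SCARNA8 (U92) differed by -0.43 each, with 95% intervals from -1.04 to 0.17 and from -0.91 to 0.05. SCARNA15 (ACA45), also a guide for U2 RNA, differed by 0.24 with an interval from -0.39 to 0.88. SCARNA20 (ACA66) and SCARNA21 (ACA68), guides for U12 RNA of the minor spliceosome, differed by -0.17 and 0.11. SCARNA22 (ACA11), which lies in NSD2 and has no known target, measured 11.79, 11.81, 11.46, 11.08 and 11.12 in CENPU clones and 10.99, 11.72, 11.19, 11.54 and 11.40 in controls. Its groups overlapped over most of their range, and the difference was 0.08 with an interval from -0.31 to 0.48. SCARNA11, SCARNA16, SCARNA18 and SCARNA23 differed by 0.16, -0.02, 0.25 and -0.13.

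Among the 4 RNAs with both kinds of domain, 2 differences were above 0 and 2 below, with a median of 0.03 and 0 passing in limma, also at an unadjusted p under 0.05. Of all named genes, 10.1% passed and 27.9% had an unadjusted limma p under 0.05. SCARNA10 (U85), which guides both kinds of modification on U5 RNA, differed by -0.27 and SCARNA12 (U89) by -0.06. SCARNA5 and SCARNA6 (U87 and U88) both lie in ATG16L1, an autophagy gene, whose upstream sequence is given above. SCARNA5 measured 11.22, 11.31, 11.29, 10.34 and 10.17 in CENPU clones 1, 4, 5, 7 and 13, and 9.99, 11.10, 11.06, 10.55 and 10.57 in control clones 1 to 5. SCARNA6 measured 10.14, 10.30, 10.15, 9.33 and 9.12, and 8.88, 10.08, 10.34, 9.60 and 9.58. Both were high in CENPU 1, 4 and 5 and controls 2 and 3, and lowest in control 1. The gap between them stayed between 0.72 and 1.14 in all 10 clones, with an SD of 0.12, while each RNA varied with an SD of 0.50 and 0.52. Pairs with different hosts were not compared in this way, so the close tracking is not shown to be particular to a shared host. SCARNA7 and SCARNA16, in different hosts, also moved alike. SCARNA7 deviated by 0.239, 0.326, 0.0401, -0.358 and -0.387 in CENPU clones 1, 4, 5, 7 and 13. SCARNA16 deviated there by 0.156, 0.442, 0.129, -0.378 and -0.404. In control clones 1 to 5, SCARNA7 deviated by -0.487, 0.535, 0.303, -0.0962 and -0.115. SCARNA16 deviated there by -0.427, 0.562, 0.07, 0.0398 and -0.189, so the pair was furthest apart in control 3. Close tracking thus also occurred without a shared host. The group differences of SCARNA5 and SCARNA6 were 0.21 and 0.11, and did not pass (limma adjusted p = 0.653 and 0.845).

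The clones of a group differed more in these RNAs than in most genes. The within-group SD of a member had a median of 0.43, from 0.21 to 0.90, and in 23 of 23 members it was above the median over all named genes, 0.21. Among 8827 named genes with means in the range of the members' means, 5.28 to 11.4, the median SD was 0.23, and 15.6% exceeded 0.43. Control 2 was the highest control for 19 of 23 members, while it was the highest control for 23.5% of all genes. CENPU 4 was the highest CENPU clone for 19 members, against 21.8% of all genes. Control 1 was the lowest control for 17 members, against 23.5% of all genes. These patterns were noticed after the values were seen; the counts were 21, 17 and 18 after quantile normalization and 19, 18 and 15 after median centring.

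Expressed as the median deviation of the 23 members from their own means, control 2 stood at 0.50, CENPU 4 at 0.41 and control 3 at 0.26. The low clones were control 1 at -0.42, CENPU 7 at -0.34 and CENPU 13 at -0.33. CENPU 1, CENPU 5, control 4 and control 5 lay at 0.03, 0.05, 0.01 and -0.16. High and low clones thus occurred in both groups, and the CENPU group averaged -0.03 ± 0.31 and the control group 0.04 ± 0.36 (SD, n = 5 each). In CENPU 4 the box H/ACA members stood at 0.44 and the box C/D members at -0.04, while in control 2 they stood at 0.81 and 0.44. The box C/D clone medians averaged -0.18 ± 0.25 for the CENPU group and 0.16 ± 0.30 for the controls (SD, n = 5 each), a gap of the size of the spread between clones. The median deviation over all genes stayed between -0.06 and 0.01 in the 10 clones. The array medians lay close together, at 4.62 to 4.76, so that value near 0 is no independent contrast.

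**Figure D3:**
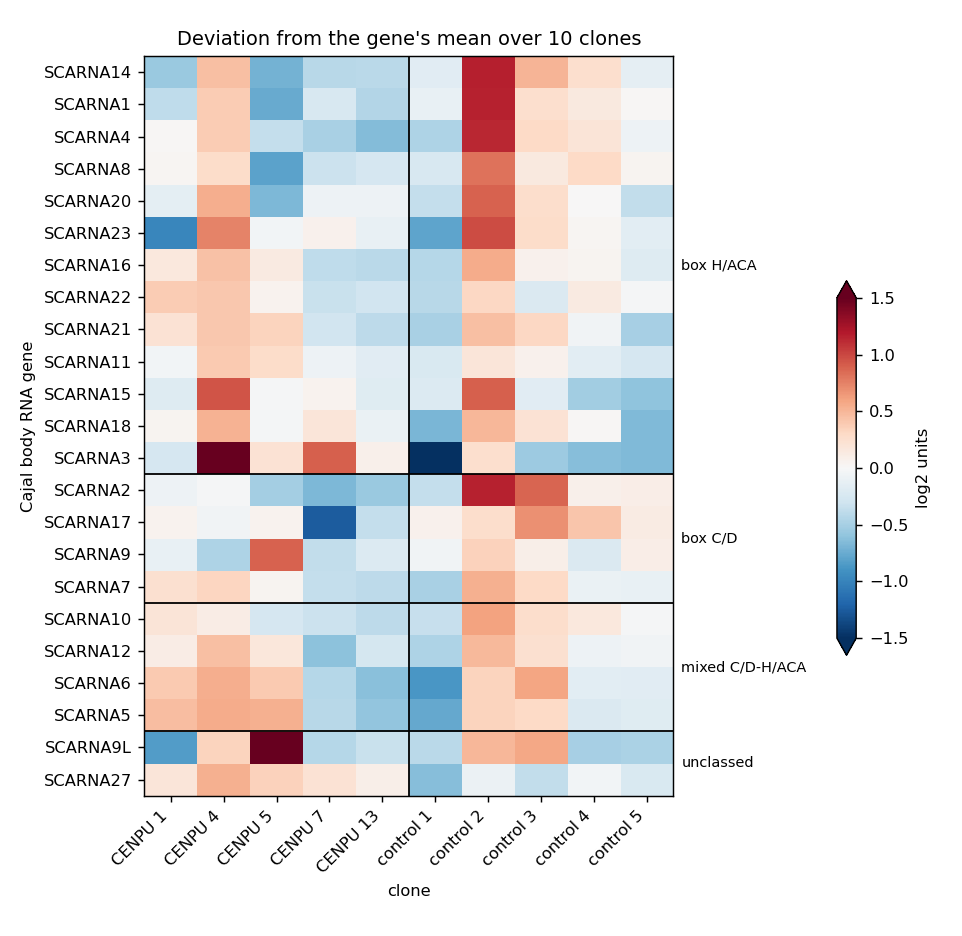
Deviation of each Cajal body RNA gene (rows, grouped by architecture) from its own mean over 10 clones (columns), in log2 units, red above and blue below the mean. Control 2 and CENPU 4 are red, and control 1, CENPU 7 and CENPU 13 blue, across most rows, although the box C/D rows of CENPU 4 go both ways, from -0.46 to 0.33.

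Other features of the arrays also differed between clones, and followed this order only in part. Over 11916 protein-coding genes, which are not independent replicates, Spearman's correlation between genomic span and deviation was -0.16, -0.0358, 0.197, 0.316 and 0.36 in CENPU clones 1, 4, 5, 7 and 13. It was -0.0934, -0.355, -0.163, -0.279 and -0.165 in control clones 1 to 5. All controls and CENPU 1 and 4 were below 0, and CENPU 5, 7 and 13 above it, so this measure moved with the groups in part. The 7 other structural RNA genes with a named row had median deviations of 0.33 in control 2, 0.15 in CENPU 4, -0.25 in control 1, -0.16 in CENPU 7 and -0.01 in CENPU 13. They also stood at 0.14 in CENPU 1 and -0.16 in control 4, where the scaRNAs lay near 0. The 12 measured host genes stood at -0.44 in control 2, where the scaRNAs were high. In CENPU 4 and control 3, where the scaRNAs were high too, the hosts stood at 0.08 and -0.004. The part of these features in the scaRNA levels, and in the host and list results, was not tested.

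**Figure D4:**
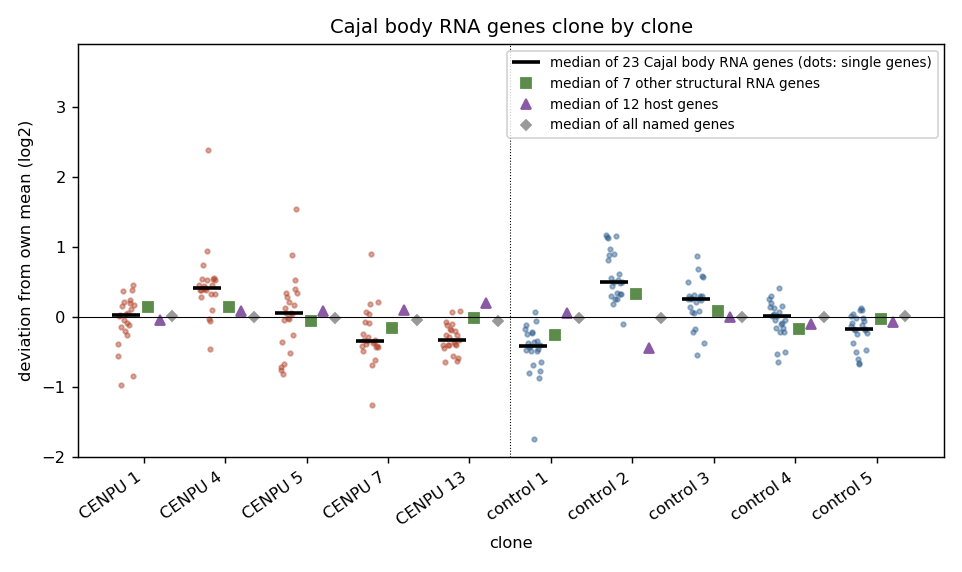
Deviation from the gene's own mean (y axis, log2 units) in each clone (x axis) for 23 Cajal body RNA genes (dots, with their median as a bar), and medians for 7 other structural RNA genes, 12 host genes and all named genes. The scaRNA median runs from -0.42 in control 1 to 0.50 in control 2. The median of all named genes stays near 0, where the array medians are themselves close together.

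Of 7 measured RNA genes of other structural classes, 0 passed in limma, where 10.1% of all named genes passed. With so few genes, that count says little about these classes. The RNase P RNA gene RPPH1 alone had an unadjusted limma p under 0.05, where 27.9% of all named genes did. RPPH1 measured 7.89, 8.11, 7.70, 7.89 and 7.66 in CENPU clones 1, 4, 5, 7 and 13, and 7.95, 8.67, 8.36, 8.26 and 8.02 in control clones 1 to 5, a difference of -0.40 (limma adjusted p = 0.098). TERC, the telomerase RNA, which carries a box H/ACA domain and passes through Cajal bodies, differed by 0.32 (limma adjusted p = 0.273). RMRP, the RNA of RNase MRP, differed by -0.06, and the vault RNA gene VTRNA1-3 by 0.12. Of 1072 microRNA genes, another class of short RNA, 5.13% passed, against 10.1% of all named genes. Many of their rows were dim: 369 of the 1072 had a mean above the median row of the array. That held for 10481 of 14884 named genes and for 23 of 23 members. The part of level in the microRNA share was not tested.

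Some host genes passed while the RNAs within them did not, and no shift of an RNA against its host passed. Genes whose span holds a member had a named row for 13 member and host pairs, or 12 host genes, of which CHD3, CEP295 and ATG16L1 rose, KHDC4 fell and 8 did not pass, so 33.3% passed against 10.1% of all genes. Their median difference was 0.26 against -0.02 over all genes, and strand was not compared in finding hosts. CHD3, a chromatin remodelling helicase around SCARNA21, measured 9.54, 9.63, 9.92, 9.36 and 9.74 in CENPU clones 1, 4, 5, 7 and 13, and 8.96, 8.53, 8.71, 8.77 and 8.85 in control clones 1 to 5. Its groups were well apart and the difference was 0.88 (limma adjusted p = 0.0035), while SCARNA21 differed by 0.11. ATG16L1 differed by 0.38 (limma adjusted p = 0.0403), CEP295 by 0.70 (0.0494) and KHDC4, which encodes an RNA-binding splicing cofactor around SCARNA4, by -0.32 (0.0479). The host count of 4 fell to 1 in 8 of the 10 fits without 1 clone, the exceptions being CENPU 1 (2 genes) and CENPU 4 (4 genes). CHD3 kept its call in 19 of 20 alternative fits, ATG16L1 in 4, CEP295 in 5 and KHDC4 in 7.

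The change of a scaRNA relative to its host was compared as their difference within each clone, a test added after the values were seen. Of 13 pairs, SCARNA9 against CEP295 shifted by -0.81 (exact two-sided permutation p = 0.0238), SCARNA14 against TIPIN by -0.98 (exact permutation p = 0.0317) and SCARNA21 against CHD3 by -0.77 (exact permutation p = 0.0476). Benjamini-Hochberg adjustment over the 13 pairs gave an exact permutation p of 0.206 for each of these, so 0 pairs passed. The smallest p these clones allow is 0.00794. TIPIN, a replication fork protein gene, differed by 0.33 and did not pass (limma adjusted p = 0.184), and SCARNA14 had the opposite sign. For SCARNA5 and SCARNA6 against ATG16L1 the shifts were -0.17 and -0.27 (exact permutation p = 0.619 and 0.413).

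**Figure D5:**
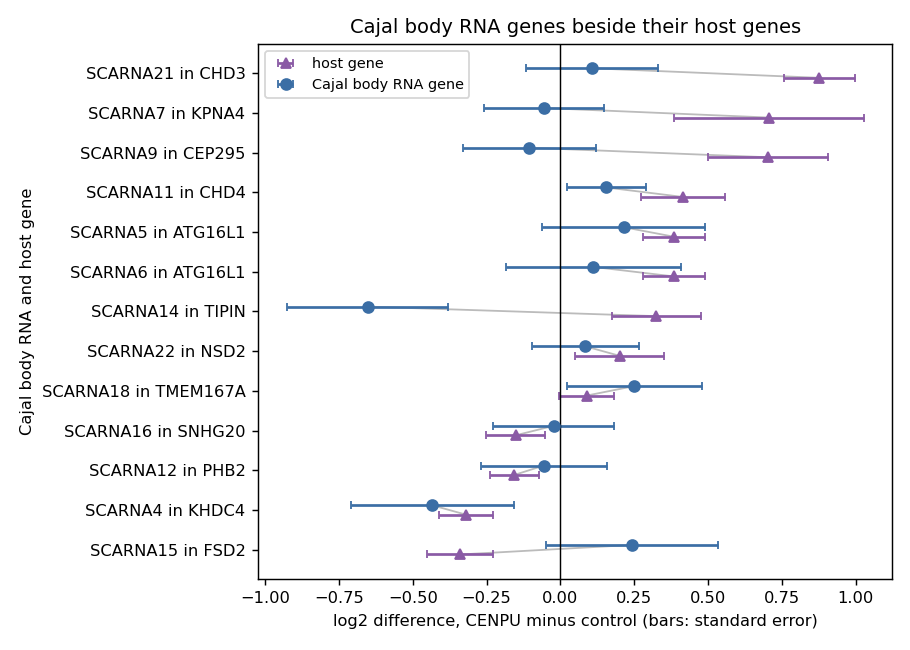
Log2 difference between CENPU and control clones (x axis) of 13 Cajal body RNA genes (circles) and the measured gene whose span holds each (triangles), with standard errors as bars and a line joining each pair. CHD3 at 0.88 stands apart from SCARNA21 at 0.11, and TIPIN at 0.33 lies opposite SCARNA14 at -0.65.

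Genes of the protein machinery were counted by list. Of the core proteins, GAR1, a subunit of the H/ACA particle, rose by 0.41 (limma adjusted p = 0.0498), a call it kept in 5 of 20 alternative fits. The other H/ACA protein genes NOP10 and NHP2 differed by 0.33 and 0.01 and did not pass. None of the 3 measured C/D core genes passed in limma, also at an unadjusted p under 0.05, where 27.9% of all named genes had such a p. NOP58 stood at 0.58, FBL (fibrillarin) at 0.12 and SNU13 at -0.12. DKC1 and NOP56 had no named row. Of 14 measured genes of the Cajal body and the SMN complex, 2 rose and 12 did not pass, beside 10.1% of all named genes passing. That count was 5 without CENPU 1, 4 without control 1, and 1 without CENPU 5, CENPU 7, CENPU 13, control 3 or control 4. COIL, which encodes coilin, measured 7.41, 7.37, 7.53, 8.03 and 7.98 in CENPU clones 1, 4, 5, 7 and 13, and 7.02, 6.29, 6.90, 6.68 and 6.38 in control clones 1 to 5. Its groups did not overlap, and it rose by 1.01 with a standard error of 0.18 (limma adjusted p = 0.00808). COIL kept its call in 19 of 20 alternative fits and GEMIN5 in 12. GEMIN5, the RNA-binding subunit of the SMN complex, rose by 0.76 (limma adjusted p = 0.0306), while ELL at -0.39 and STRAP at 0.76 were just outside the threshold (limma adjusted p = 0.0507 and 0.0511). Of 8 measured assembly factor genes 0 passed in limma, and 2 had an unadjusted limma p under 0.05, beside 27.9% of all named genes. RPAP3 stood at 1.10 (limma adjusted p = 0.0681), NUFIP1 at 0.78, PIH1D1 at 0.24 and SHQ1 at 0.21.

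Enzymes that trim and degrade nuclear RNA held 8 of the 17 list genes that passed. That is 8 of 17 measured, where 10.1% of all named genes passed (5.31% higher and 4.79% lower). The list count was 4 without CENPU 7, control 2 or control 4, 5 without control 5, and 2 without control 2, CENPU 7 and CENPU 13 together. In the fit of all clones 5 rose: EXOSC10, the nuclear exosome nuclease, by 1.13 (limma adjusted p = 0.00172), PARN, the deadenylase that trims H/ACA RNAs, by 1.05 (0.00852), the helicase gene MTREX by 1.71, the nuclease gene DIS3 by 1.48 and EXOSC1 by 0.47. EXOSC2, EXOSC6 and EXOSC4, subunits of the exosome cap and ring, fell, with differences of -0.57, -0.43 and -0.45, and 9 did not pass. EXOSC10 and EXOSC2 kept their calls in 19 of 20 alternative fits, PARN and MTREX in 18, EXOSC6 in 14, EXOSC1 in 13, EXOSC4 in 10 and DIS3 in 7. HEATR1 and WDR3 of the U3 processome rose, by 1.52 and 1.18, and 17 of its 19 measured genes did not pass, among them DCAF13 at 0.42 and BYSL at -0.36. Without CENPU 1, 8 genes of that list passed. RRN3, an initiation factor of RNA polymerase I, rose by 1.39, and the other measured genes of that list, POLR1F at 0.61 and POLR1H at -0.18, did not pass.

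Among long non-coding hosts of small nucleolar RNAs, ZFAS1 rose by 0.76 (limma adjusted p = 0.00599), SNHG16 by 0.66 and SNHG5 by 0.55, and 7 of 10 measured genes did not pass, SNHG10 at -0.49 among them, beside 10.1% of all named genes passing. This list fell to 1 gene without CENPU 5, CENPU 13 or control 4, and ZFAS1 kept its call in 19 of 20 alternative fits, SNHG16 in 13 and SNHG5 in 11. Over all lists, 14 genes were higher, 3 were lower and 67 of 84 did not pass, where 10.1% of all named genes passed. The total of 17 was 11 without control 2, 9 without control 4, 10 without CENPU 7, 11 without CENPU 5 or CENPU 13 and 32 without CENPU 1. Leaving out control 2, CENPU 7 and CENPU 13 at once gave 7.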

How the data were processed

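Total RNA of 10 PC-3 clones was hybridised to 1 Affymetrix array each. The values deposited are log2 expression per probe set, made by the authors with RMA in Partek, per the submitters' processing notes; versions and build are not given in the sources used here, and the log2 scale was read from the values. Signals of this kind carry no read depth, so the number of clones limits precision. Here limma 3.58.1 (R 4.3.3) was fitted to 16098 named rows with 2 groups and eBayes, with Benjamini-Hochberg adjustment over these rows. A further 37519 of 53617 rows have no name and were left out. A gene was its row of highest mean. Each sample is 1 clone, and nothing says how many cultures or transductions they came from; the p-values rest on clone-to-clone spread, which may be technical in part.

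Members and gene lists were chosen with earlier results of these data known, and architecture classes were assigned from RefSeq synonyms and textbook names after the members were matched. Hosts are genes of the RefSeq table (GRCh38.p14) whose span contains a member; the planned restriction to 1 strand could not be applied, since strand was not used here. The rule for named genes asked for members that passed and the 5 of smallest p in each class, and all other members were added so that each is accounted for; also named are their measured hosts, and from each list every gene that passed and up to 4 of smallest p. Alternatives were 2 scalings, a filter on dim rows, all rows, array weights, a robust trended prior, the replicate block, a threshold of 0.10, and clones left out singly or together. The fit was tested on simulated data. Comparisons of SCARNA RNAs with their hosts used exact permutation tests.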

Additional observations from a re-analysis of the deposited data

Results flagged for a closer look

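In 10 of 144 groups of 5 clones, 1 clone stood apart by a gap over 0.71 of the group's range, where chance alone marks about 5% of groups. SCARNA14 was 6.71 in CENPU 4 and 5.54 to 5.85 in the other CENPU clones. SCARNA15 was 6.23 in CENPU 4 (others 5.09 to 5.34) and 6.18 in control 2 (other controls 4.68 to 5.11). SCARNA9 was 10.2 in CENPU 5, with the other CENPU clones between 8.84 and 9.19. Among hosts, CHD4 was 8.68 in control 2 (others 9.3 to 9.51) and SNHG20 was 7.85 in CENPU 1 (others 8.02 to 8.06). In control 2, NOP58 was 6.34 (others 7.03 to 7.3), MTREX 4.82 (6.09 to 6.5) and RPAP3 4.2 (4.99 to 5.26), all low, and EXOSC4 was high at 10.2 (9.6 to 9.67).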

How the results depend on the processing

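Of the 23 members, 6 kept direction and call under all 20 alternatives, 12 changed sign and 5 changed call; the causes were not tested. The count of members that passed, 1 as reported, was 0 after quantile normalization and with the replicate block, 2 with array weights, 3 at a threshold of 0.10 and 3 without control 2 and CENPU 4 (chosen after seeing the data), and 0 to 2 when 1 clone was left out. The host count of 4 was 2 after quantile normalization, 1 with all rows, 1 with the robust trended prior, 0 with the replicate block, 1 without control 2, CENPU 7 and CENPU 13, and 1 to 4 when 1 clone was left out. The list count of 17 was 30 with array weights, 0 with the replicate block, 7 without those 3 clones, 29 at a threshold of 0.10, and 9 to 32 when 1 clone was left out. Over all named genes the count of 1504 was 2251 with array weights, 2588 at 0.10, 470 without those 3 clones, 55 with the replicate block, and 613 (without control 4) to 2471 (without CENPU 1). Clone numbers 1, 4 and 5 occur in both groups, and their deviations correlated at -0.379, 0.104 and 0.0227, so the numbers do not pair the clones. CENPU 7, CENPU 13, control 2 and control 3 have no partner in the replicate block. Differences of that fit therefore rest on clones 1, 4 and 5 of each group alone. The replicate block moved the median difference of all members to 0.421, of box H/ACA members to 0.378, of box C/D members to 0.00926 and of mixed members to 0.642; without control 2, CENPU 7 and CENPU 13 the medians were 0.331 for all and 0.463 for mixed members.

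Differences that turned sign were, after quantile normalization, NHP2 (-0.0575), and with array weights SCARNA16 (0.0306), SCARNA23 (0.00623) and SCARNA9 (0.0368). With the replicate block they were SCARNA4 (0.131), SCARNA16 (0.434), SCARNA20 (0.15), SCARNA23 (0.221), SCARNA7 (0.435), SCARNA9 (0.162), SCARNA10 (0.085), SCARNA12 (0.441), NSD2 (-0.0698), RMRP (0.0492) and SHQ1 (-0.103). Without control 2, CENPU 7 and CENPU 13 they were SCARNA4 (0.0266), SCARNA16 (0.369), SCARNA20 (0.0243), SCARNA23 (0.0741), SCARNA7 (0.301), SCARNA9 (0.124), SCARNA10 (0.00137), SCARNA12 (0.331), RMRP (0.0415) and SHQ1 (-0.0809). Without control 2 and CENPU 4 they were SCARNA16 (0.00206) and SCARNA9 (0.0692). When 1 clone was left out, differences that crossed 0 ran from -0.136 to 0.115 for SCARNA16, -0.327 to 0.0312 for SCARNA20, -0.00183 to 0.234 for SCARNA21, -0.00896 to 0.179 for SCARNA22, -0.341 to 0.10 for SCARNA23, -0.185 to 0.0708 for SCARNA7, -0.0933 to 0.283 for SCARNA6, -0.177 to 0.09 for SCARNA12, -0.257 to 0.34 for SCARNA9L and -0.0255 to 0.0458 for NHP2. Counting every row of a member gene changed nothing, since each member has 1 row.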
